A study of Mus musculus with 6 samples.

Results

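*Fbxo32* and *Prkag3* are 2 muscle genes with metabolic roles that were listed with opposite directions when muscle stem cells (MuSCs) lacking the RNA-binding protein Quaking (QKI) were compared with control MuSCs. Both were chosen by their measured values in this comparison, as the 2 rows of the deposited table with these gene symbols, out of 398 genes in all. Their difference between the groups is therefore given as a description, with no test. QKI-cKO mice (genotype QKI2lox/2lox;Pax7CreERT2/+, labelled KO) and QKI-ctrl littermates (QKI2lox/2lox;Pax7+/+, labelled WT) were compared, with 3 mice in each group. Both groups carried the floxed *Qk* alleles on a C57BL/6 background and received 4-hydroxytamoxifen once daily for 5 d, at 6 to 8 wk of age, and experiments followed 10 d after the last injection. Cre recombinase, driven by the *Pax7* promoter of MuSCs, was present only in QKI-cKO mice, so the effect of the Cre allele and that of the loss of QKI cannot be told apart. MuSCs were sorted by FACS as ITGA7-positive cells without CD45, CD11b or Sca1, and grown for 72 h before poly(A) RNA was taken for sequencing.

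The deposited table holds 1 FPKM value for each gene and group, a fragment count set against the length of the transcript and the size of the library, with the replicates pooled by the authors. It holds only genes that the authors marked as significant. Among genes above 0 in both groups, the smallest absolute log2 ratio was 0.29. Smaller differences are missing, so each position by ratio given below is one among selected genes. The study also states cutoffs on fold change and level, with a fold-change cutoff that differs between its results and methods. Read as log2 ratios, both fold-change cutoffs lie above the value of *Fbxo32* given below. No value per mouse was available here, so neither a spread between replicates nor a test could be computed, and the depth is unknown. A gene that is not in the table may be unchanged, untested or not expressed, and nothing is read here from such an absence. The table holds 330 genes annotated as protein-coding, and its share of all annotated genes was not computed. The counts of listed genes found in it are therefore not read as many or few. The table names its groups only q1 and q2. They were taken as QKI-ctrl and QKI-cKO because the contractile genes that the study describes as reduced in QKI-cKO MuSCs are lower in q2, so the directions given here rest on that reading. The targeted gene *Qk* was listed at 262 FPKM in QKI-cKO and 128 FPKM in QKI-ctrl. This value covers the whole gene and not the deleted exon alone, so it does not check the deletion. The study reports a separate check of the deletion by RT-qPCR in the MuSCs used for sequencing.

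*Fbxo32* encodes atrogin-1, also called MAFbx, the F-box protein that brings substrates to an SCF ubiquitin ligase, which marks them for the proteasome. It is known for its induction in wasting skeletal muscle, where FOXO transcription factors switch it on, and MyoD and the translation factor eIF3f are among its described substrates. *Prkag3* encodes the γ3 regulatory subunit of AMP-activated protein kinase (AMPK), the enzyme that senses a low energy charge. AMPK is built of a catalytic α, a scaffolding β and a nucleotide-binding γ subunit. The γ3 form is largely limited to skeletal muscle, above all to fast glycolytic fibers, and is known in pigs for variants that alter muscle glycogen.

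On GRCm38, *Fbxo32* (ENSMUSG00000022358.7) lies on the minus strand of chromosome 15, from 58175879 to 58214932 in the GENCODE annotation. It has 1 annotated transcript of 6976 nucleotides in 9 exons, with 1065 coding nucleotides. The locus given for *Fbxo32* in the deposited table is longer, running to 58324169. That stretch also covers the antisense RNA *Gm15943* (58214475 to 58324053), which overlaps the *Fbxo32* gene by 458 bp, and *Klhl38* (58314573 to 58324169), which does not overlap it. Neither neighbour is in the table. The libraries were prepared with a stranded kit, but whether strand was used in computing FPKM is not given in the sources used here. If it was not, reads from the 458 bp shared with *Gm15943* could count for either gene.

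*Prkag3* (ENSMUSG00000006542.13) lies on the minus strand of chromosome 1, from 74738922 to 74749221. The locus in the deposited table has the same ends and holds no other annotated gene. *Prkag3* has 6 annotated transcripts, of which 3 are protein-coding (2003, 2341 and 2832 nucleotides) and 3 are annotated as targets of nonsense-mediated decay. The table gives 1 value for the gene as a whole, so the transcripts could not be told apart. Within 1 Mb of the *Fbxo32* locus and of *Prkag3* the annotation has 21 and 55 other protein-coding genes, and 0 genes of the table lie there in either case.

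QKI binds RNA at QKI response elements with the core ACUAAC or ACUAAU, so the annotated mature transcripts of both genes were searched for these cores, written ACTAAC and ACTAAT, on the sense strand only. The *Fbxo32* transcript held 0 copies of either. Of the 1543 protein-coding transcripts within 10% of its length, 49.3% held ACTAAC and 73.2% held at least 1 of the cores. The 6 *Prkag3* transcripts held 0 copies of either core as well. Among protein-coding transcripts within 10% of the length of the 2341-nucleotide *Prkag3* form, the share with ACTAAC was 19.2% and that with at least 1 of the cores was 36.3%. Introns were not searched, the second part of the element (UAAC or UAAU nearby) was not required, and the absence of these letters from the exons says nothing about binding.

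An E-box near the RefSeq start of *Prkag3* is shown because E-boxes, the sites of MyoD and myogenin, are common at genes of differentiated muscle. Of both genes, *Prkag3* had an entry among the RefSeq promoter sequences used here and *Fbxo32* had none. The 250 bases before the RefSeq start (GRCm38.p6, chr1:74748956-74749205, minus strand) are not upstream of the gene in the GENCODE annotation. The most upstream 5′ end there, that of the 2341-nucleotide transcript, is at 74749221, and all 250 bases lie in the exon at its 5′ end. The 30 bases around the E-box (chr1:74748978-74749007, minus strand) are given 5′ to 3′, with the E-box in capitals.
Prkag3 E-box: gcagtgcgggaaCAGCTGcgggttaagcgc
The E-box motif searched was CANNTG, and a match on one strand is also a match on the other. It occurred 1 time in the *Prkag3* window of 250 bases before and 50 bases after the RefSeq start, as CAGCTG beginning 40 bases before the start. Of all 32851 windows of this length at RefSeq starts, 72.3% held CANNTG and 16.3% held CAGCTG, which is one form of CANNTG. For 13 of the 14 differentiated muscle genes described further on, 15 windows were found, of which 12 held CANNTG and 6 held CAGCTG. These matches are letters in a window and were not measured as binding.

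*Fbxo32* was higher in QKI-cKO. The authors' value was 1.40 FPKM in QKI-cKO MuSCs and 1.05 FPKM in QKI-ctrl MuSCs, a difference of 0.358 FPKM, a ratio of 1.34 and a log2 ratio of 0.43. *Prkag3* was lower in QKI-cKO, at 0.167 FPKM in QKI-cKO MuSCs and 0.386 FPKM in QKI-ctrl MuSCs. Its ratio was 0.434 and its log2 ratio was -1.21. On the log2 scale the difference of *Prkag3* was the larger of the 2, while in FPKM that of *Fbxo32* was larger, since that of *Prkag3* was -0.219 FPKM. FPKM is a value per length, so the levels of the genes can be set side by side. *Fbxo32* was 8.38 times the level of *Prkag3* in QKI-cKO and 2.71 times its level in QKI-ctrl.

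**Figure D1:**
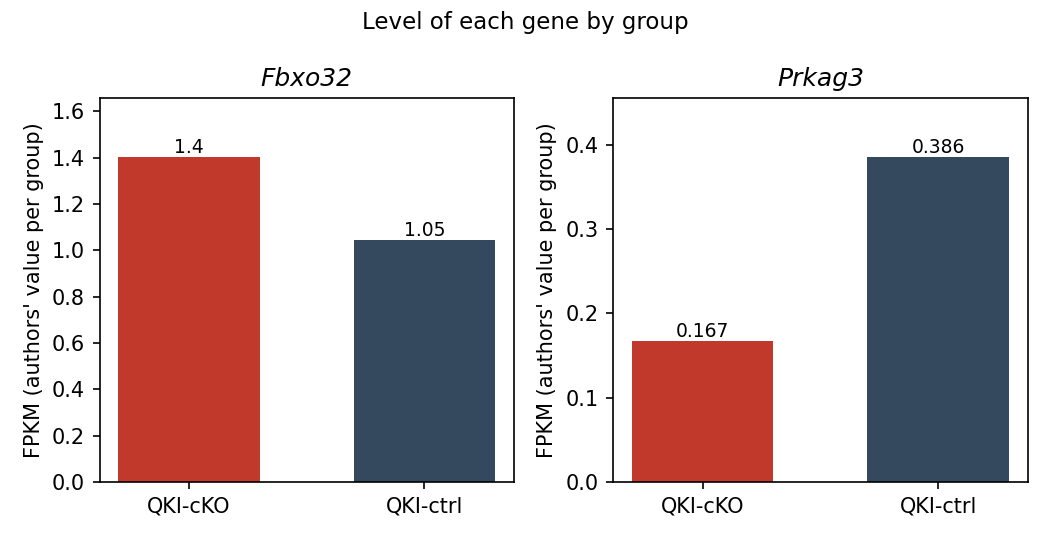
FPKM of *Fbxo32* and *Prkag3* (y axes from 0, with a scale of their own) in QKI-cKO and QKI-ctrl MuSCs. Each bar is the authors' single value for a group, so there is no error bar. *Fbxo32* is at 1.40 FPKM in QKI-cKO and 1.05 FPKM in QKI-ctrl, *Prkag3* at 0.167 FPKM in QKI-cKO and 0.386 FPKM in QKI-ctrl.

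Both genes were weakly expressed. The higher of the group values was below that of *Fbxo32* in 78 of the 398 genes (19.6%) and below that of *Prkag3* in 15 (3.77%), while the median over the table was 7.67 FPKM. Multiplied by the annotated length, the *Fbxo32* values correspond to 9.79 fragments per 1000000 mapped ones in QKI-cKO and 7.29 in QKI-ctrl. For *Prkag3* and its 2341-nucleotide transcript they correspond to 0.392 fragments per 1000000 in QKI-cKO and 0.904 in QKI-ctrl. With the shortest coding transcript of *Prkag3* these would be 0.335 and 0.774, and with the longest 0.474 and 1.09. The *Prkag3* ratio therefore rests on less than 1 fragment per 1000000 in QKI-cKO under each of the 3 lengths. The number of fragments per library is not in the table, so no counting interval could be given.

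In the whole table, 228 genes (57.3%) had a higher value in QKI-cKO and 170 genes (42.7%) a lower one. *Fbxo32* is 1 of the 228 and *Prkag3* 1 of the 170, as the choice of the genes fixes. At least 2-fold higher values in QKI-cKO were found for 34 genes (8.54%), without *Fbxo32*, and at least 2-fold lower values for 43 genes (10.8%), with *Prkag3*. Among the higher genes, 159 had a larger ratio than *Fbxo32* and 68 a smaller one, so that its log2 ratio of 0.43 was below their median of 0.55. Among the lower genes, 32 had a more extreme ratio than *Prkag3* and 137 a less extreme one, and their median log2 ratio was -0.68.

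Weakly expressed genes of the table had larger ratios than strongly expressed ones, and the table is selected for significance. The median absolute log2 ratio was 1.22 over the 56 genes below 1 FPKM in both groups, 0.89 over the 39 genes whose higher value was from 1 to 2 FPKM, and 0.41 over the 107 genes at 20 FPKM or more. *Prkag3* was close to the first of these medians, with 27 of the 56 genes at a smaller absolute log2 ratio. *Fbxo32* had the smallest absolute log2 ratio of the 39 genes of its range, and also of all 95 genes below 2 FPKM. The next smallest of the 95 were those of *Tent5c*, which encodes a poly(A) polymerase, with 0.969 FPKM in QKI-cKO and 0.670 FPKM in QKI-ctrl, and of *Slco2a1*, a prostaglandin transporter, with 0.552 FPKM in QKI-cKO and 0.809 FPKM in QKI-ctrl. The *Fbxo32* transcript is also among the longest of these genes. Of the 95, 6 have a longer longest transcript and the median is 2813 nucleotides, and a longer transcript yields more fragments at the same FPKM. The part of length in the listing of *Fbxo32* was not tested.

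**Figure D2:**
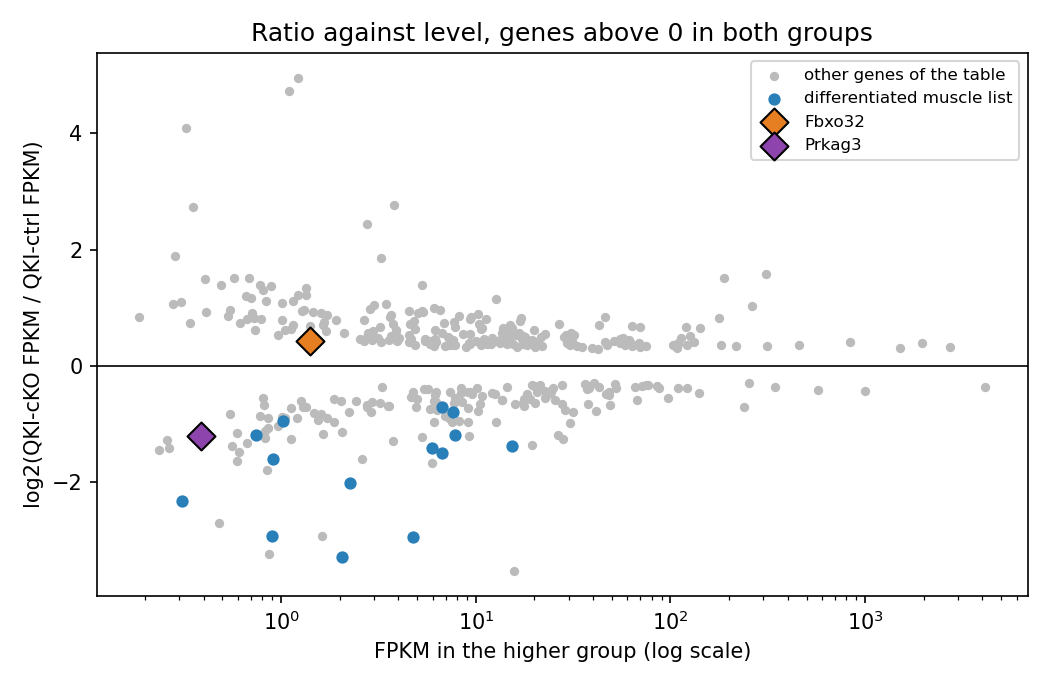
Log2 ratio of QKI-cKO over QKI-ctrl FPKM (y axis) against FPKM in the higher group (x axis, log scale) for the 394 genes above 0 in both groups. *Fbxo32* (0.43) lies at the inner edge of the low-level genes, *Prkag3* (-1.21) among the low-level genes that are lower in QKI-cKO, and the 14 genes of the differentiated muscle list that are in the table lie below 0. *Tpm2* and *Myom3*, sarcomere genes outside that list, are among the other genes above 0.

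The partners of *Fbxo32* were looked for in lists that name its own pathway. Of 31 ubiquitin ligases and SCF subunits with an annotated symbol, 2 were in the table, *Fbxo32* itself and *Trim72*. *Trim72* encodes MG53, a muscle TRIM-family ligase known for sealing damaged membranes. It was listed at 0.245 FPKM in QKI-cKO and 0.846 FPKM in QKI-ctrl, a log2 ratio of -1.79. These 2 genes of the list thus had opposite directions. The list does not hold every ubiquitin ligase gene of the table. Outside it, the ligase gene *Mylip* was higher, with 2.66 FPKM in QKI-cKO and 1.97 FPKM in QKI-ctrl. The RING finger genes *Rnf114* (17.2 FPKM in QKI-cKO, 23.4 FPKM in QKI-ctrl) and *Rnf225* (0.798 FPKM in QKI-cKO, 1.30 FPKM in QKI-ctrl) were lower. Of the 77 annotated protein-coding genes with an F-box name (Fbxl, Fbxo or Fbxw), *Fbxo32* was the only one in the table. *Trim63*, the MuRF1 ligase that usually accompanies atrogin-1 in wasting muscle, was not in the table.

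Of 36 genes of the atrophy program, FOXO signalling and glucocorticoid response, 2 were in the table and both were higher in QKI-cKO, as were *Fbxo32* and 57.3% of the table. *Tsc22d3*, the glucocorticoid-induced GILZ gene, was listed at 12.1 FPKM in QKI-cKO and 8.71 FPKM in QKI-ctrl, a log2 ratio of 0.48. *Mt2*, a metallothionein gene that binds zinc and responds to glucocorticoids and metals, was listed at 109.0 FPKM in QKI-cKO and 83.5 FPKM in QKI-ctrl, a log2 ratio of 0.38. The median log2 ratio of these 2 genes was 0.43, beside 0.36 over all 398 genes. *Foxo1*, *Foxo3*, *Mstn* and the other genes of the list were not in the table, nor was any of the 5 genes for *Fbxo32* substrates, *Myod1* and *Eif3f* among them.

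The partners of *Prkag3* were looked for in the same way. Of the 7 genes for AMPK subunits, *Prkag3* alone was in the table, so neither the catalytic subunits *Prkaa1* and *Prkaa2* nor the other γ subunits *Prkag1* and *Prkag2* can be set beside it. Of 30 genes for AMPK regulators and targets, such as the upstream kinase *Stk11* and the glucose transporter *Slc2a4*, 0 were in the table. Of 30 genes of muscle glycogen and energy metabolism, such as *Pygm* and *Ckm*, 0 were in the table either. Without the share over all annotated genes, these counts of 0 are not read as few.

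Most, but not all, genes of differentiated muscle in the table were listed with the same direction as *Prkag3*. Of 38 genes in that list, 14 were in the table and 14 were lower in QKI-cKO, with a median log2 ratio of -1.45, beside 0.36 over all 398 genes and 42.7% of them lower. The list was written with earlier results of these data known, so its direction is no independent evidence. The contractile genes used to read q2 as QKI-cKO are among the 14, so their lower values follow from that reading. Summed over the 14 genes, the level was 25.2 FPKM in QKI-cKO and 62.9 FPKM in QKI-ctrl, a ratio of 0.400, beside 0.434 for *Prkag3*, and 0 of the 14 were at 0 in either group. Both the count and the sum depend on which genes the list holds. *Tpm2*, the β-tropomyosin gene, which cells other than muscle also use, is outside the list and was higher in QKI-cKO, with 121 FPKM in QKI-cKO and 76.1 FPKM in QKI-ctrl. *Myom3*, an M-band protein gene, was listed at 1.23 FPKM in QKI-cKO and 0.526 FPKM in QKI-ctrl, and *Apobec2*, a deaminase-family gene of muscle, at 16.1 FPKM in QKI-cKO and 11.2 FPKM in QKI-ctrl. With these 3 genes and *Lmod3*, an actin filament regulator of the sarcomere listed at 0.220 FPKM in QKI-cKO and 0.610 FPKM in QKI-ctrl, 15 of 18 genes were lower and 3 higher. The summed level of the 18 genes was 163 FPKM in QKI-cKO and 151 FPKM in QKI-ctrl, a ratio of 1.08, so the lower sum of the 14 genes does not hold with them. In bulk RNA, fewer differentiating cells and less of these RNAs per cell cannot be told apart, and the part of either in the *Prkag3* value was not tested.

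Among the 14 genes, 9 had a more extreme ratio than *Prkag3* and 5 a less extreme one. *Mylpf*, the fast skeletal regulatory myosin light chain, had the highest level of the list, with 5.90 FPKM in QKI-cKO and 15.3 FPKM in QKI-ctrl. *Tnni1*, slow skeletal troponin I, was listed at 4.40 FPKM in QKI-cKO and 7.61 FPKM in QKI-ctrl. *Sspn*, a protein of the dystrophin complex, was listed at 2.38 FPKM in QKI-cKO and 6.69 FPKM in QKI-ctrl. *Cavin4*, a caveolar protein of muscle, had the ratio closest to 1 of the list, with 4.09 FPKM in QKI-cKO and 6.69 FPKM in QKI-ctrl. Closest to *Prkag3* in ratio were *Actc1*, the cardiac α-actin that developing skeletal muscle also makes, with 3.44 FPKM in QKI-cKO and 7.81 FPKM in QKI-ctrl, and *Actn2*, a Z-disc α-actinin, with 0.329 FPKM in QKI-cKO and 0.744 FPKM in QKI-ctrl. Only *Myom2*, an M-band protein gene, had a lower QKI-ctrl level than *Prkag3*, with 0.0620 FPKM in QKI-cKO and 0.309 FPKM in QKI-ctrl. *Myh1*, which encodes a myosin of fast fibers, where the γ3 subunit is also found, was listed at 0.534 FPKM in QKI-cKO and 1.02 FPKM in QKI-ctrl.

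**Figure D3:**
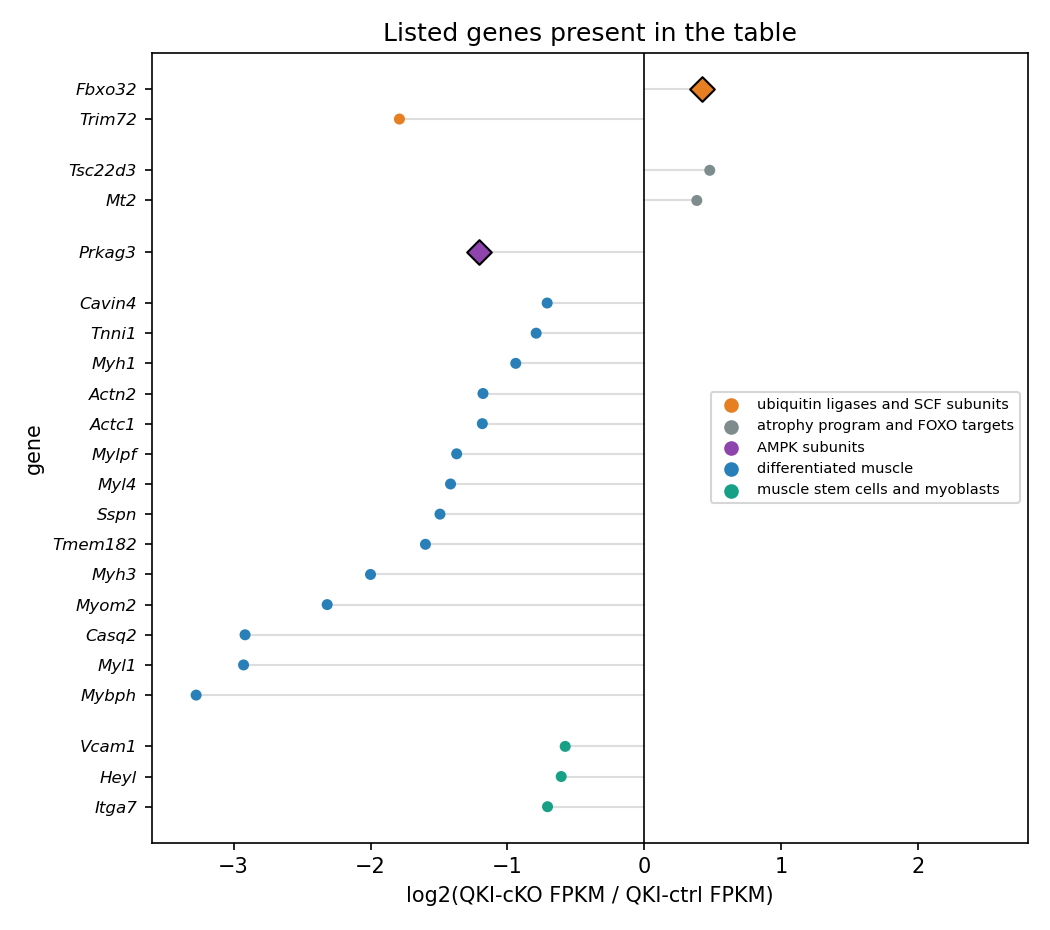
Log2 ratio of QKI-cKO over QKI-ctrl FPKM (x axis) for each gene of the lists that is in the table (y axis), coloured by list, with diamonds for *Fbxo32* and *Prkag3*. *Fbxo32*, *Tsc22d3* and *Mt2* are above 0, and *Prkag3*, *Trim72*, the 14 genes of the differentiated muscle list and the 3 genes of MuSCs and myoblasts are below 0.

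The list of MuSC and myoblast genes had 3 of its 17 genes in the table, and 3 were lower in QKI-cKO, beside 42.7% of the table. This list too was written with earlier results of these data known, and the count depends on which genes it holds. *Itga7*, the integrin used to sort the cells, was listed at 145 FPKM in QKI-cKO and 237 FPKM in QKI-ctrl, far above *Fbxo32* and *Prkag3*. *Vcam1*, an adhesion molecule of MuSCs, was at 44.9 FPKM in QKI-cKO and 67.1 FPKM in QKI-ctrl, and *Heyl*, a Notch target gene, at 1.59 FPKM in QKI-cKO and 2.42 FPKM in QKI-ctrl. *Pax7*, the defining MuSC gene, was not in the table, so the labelled cell type could be checked only in part. Of 23 chosen marker genes of leukocytes, endothelium, fibro-adipogenic, tendon, glial, mural and fat cells, 0 were in the table. The table holds only genes marked as significant, and other genes of these cells were not looked for, so this is no measure of purity.

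With a single value per group, the likeness of another gene to *Fbxo32* or *Prkag3* is the distance between log2 ratios over 2 groups. The 3 genes closest to *Fbxo32* were *Slc37a2*, a sugar phosphate carrier of the endoplasmic reticulum, *Ccng2*, an unconventional cyclin, and *Socs1*, an inhibitor of cytokine signalling, each within 0.00377 on the log2 scale. *Ccng2* was listed at 10.04 FPKM in QKI-cKO and 7.47 FPKM in QKI-ctrl, and *Socs1* at 3.93 FPKM in QKI-cKO and 2.93 FPKM in QKI-ctrl. Closest to *Prkag3* were *Esm1*, a secreted proteoglycan, and the pseudogene *Rpl22-ps1*, each within 0.0121 on the log2 scale. *Esm1* was listed at 4.05 FPKM in QKI-cKO and 9.26 FPKM in QKI-ctrl, and *Rpl22-ps1* at 2.27 FPKM in QKI-cKO and 5.28 FPKM in QKI-ctrl. All of these genes were at higher levels than the gene they are closest to.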

How the data were processed

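MuSC RNA of 3 QKI-cKO and 3 QKI-ctrl mice was sequenced with paired ends, and the genotype label of each sample set its group. According to the study's methods, the authors removed adaptors with Trimmomatic, aligned reads with STAR to mm10/GRCm38 and processed them with the Cufflinks suite. The deposited FPKM values were made by the authors, who scaled libraries by geometric means of fragments and merged the replicates of a group into 1 value. The other columns hold the authors' fold changes, test statistics, p-values and q-values, which were not used.

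Ratios and log2 ratios of QKI-cKO over QKI-ctrl were computed from the FPKM values without a pseudocount. A gene at 0 FPKM in a group (3 in QKI-cKO, 1 in QKI-ctrl) counted by direction only. No test was made. The counting steps were tested on simulated tables. Gene IDs were matched without their version to GENCODE vM21, which uses GRCm38, and 397 of 398 were found. Loci were written 1-based. Promoters are from RefSeq (GRCm38.p6). The genes, their lists and the naming rule were chosen with earlier results of these data known. The rule named *Fbxo32*, *Prkag3*, *Qk*, listed genes found in the table (at most the 5 with the highest FPKM in a list with over 8), the 3 genes closest in log2 ratio, and genes within 1 Mb. One gene that the rule names is not reported here. *Actn2*, *Myom2*, *Myh1*, *Tent5c*, *Slco2a1*, *Tpm2*, *Myom3*, *Apobec2* and *Lmod3* were named after their values were seen. So were *Mylip*, *Rnf114* and *Rnf225*. Alternatives were pseudocounts of 0.1 and 1 FPKM, filters of 0.1 and 1 FPKM, the table without predicted genes, and centring on the table's median. Added after seeing the data were the core ACTAAT and a wider muscle list, with the sarcomere genes of the table found by family name and *Apobec2*. Python 3.11.15, pandas 2.3.3, numpy 2.4.6 and matplotlib 3.10.9 were used.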

Additional observations from a re-analysis of the deposited data

How the results depend on the processing

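A pseudocount cannot change the direction of *Fbxo32* or *Prkag3*, because the same amount is added to both values. Centring on a median above 0 lowers each log2 ratio, so it could have reversed only *Fbxo32*, and it did not. The sizes depended on both choices. With 0.1 FPKM added to both values, the log2 ratio was 0.39 for *Fbxo32* and -0.86 for *Prkag3*. With 1 FPKM added, it was 0.23 for *Fbxo32* and -0.25 for *Prkag3*, so that both genes differed by a similar amount, as adding 1 FPKM shrinks ratios of values below 1 FPKM the most. Centred on the median log2 ratio of all 398 genes (0.36), *Fbxo32* was at 0.0616 and *Prkag3* at -1.57. The table holds only genes called different, so its median is not a measure of library scaling. The numbers of genes in each direction changed by less than 1.5 times under the 1 FPKM filter and without predicted genes. Centring on the median splits the table evenly by definition, so it is no check of these numbers. The number with a larger ratio than *Fbxo32* was 159, 131 under the 1 FPKM filter and 139 without predicted genes. For *Prkag3* the number with a more extreme ratio was 32, and 24 without predicted genes. The 0.1 FPKM filter removed no gene, as the lowest higher-group value was 0.171 FPKM, and the 1 FPKM filter would remove *Prkag3* itself. No paired analysis was possible because the table gives 1 value per group and none per replicate, and leaving out a replicate could not be tried for the same reason. Adding *Tpm2*, *Myom3*, *Apobec2* and *Lmod3* to the 14 muscle genes, a choice made after seeing the data, reversed the log2 ratio of their summed level, which was 0.11 with them and -1.32 without them, because *Tpm2* alone holds most of the sum. With no value per mouse, the precision of both ratios was not computed here.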
